A study of Mus musculus with 42 samples.

Results

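The trophectoderm transcription factors followed here are Cdx2, Elf5, Eomes, Gata2, Gata3, Tfap2a, Tfap2c, Hand1 and Tead4, 9 of the 48321 gene names counted. They were chosen by name as known regulators of the outer, placenta-forming layer of the blastocyst, with earlier results of these data known. Their levels were measured by stranded poly(A) RNA-seq in mouse embryonic fibroblasts (MEF), in cells sorted during reprogramming and in induced pluripotent stem cells (iPSC), over 42 libraries of 14 groups with 3 libraries each. All 9 names are in both count tables. Cdx2 passed the filter on low counts in neither table, so 8 members were tested.

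In the mouse blastocyst, TEAD4, the DNA-binding partner of the Hippo-controlled coactivator YAP, switches on the genes of the outer cells. Cdx2, a caudal-type homeobox factor, and Gata3, a zinc finger factor, are among its targets, and CDX2 restrains the pluripotency programme there. Eomes (a T-box factor), Elf5 (an ETS factor) and Tfap2c (AP-2 gamma) then sustain trophoblast stem cells. Hand1, a basic helix-loop-helix factor, and Gata2 act in trophoblast giant cells. Tfap2a, AP-2 alpha, is also a factor of surface ectoderm and neural crest, and Tfap2c of germ cell precursors, so most members have roles outside the placenta.

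The nx2 libraries (labelled naivex2, first sequencing batch) come from 3 lines of mice that cross B6; 129S4-Tg(Tet1-mCherry)B37Koh mice with a reporter strain, B6;CBA-Tg(Pou5f1-EGFP)2Mnn/J, and are labelled Tg(mCherry)/wt; Tg(GFP)/wt. They hold day 10 mCherry+/GFP- cells, day 12 and day 14 mCherry+/GFP+ and mCherry+/GFP- cells, iPSC lines at passage 6 to 7, and the day 0 parental MEF. The tx2 libraries (labelled totalx2, second batch) come from 3 lines that cross B6- Tet1tm1.1Koh mice with B6;129S4-Pou5f1tm2Jae/J mice, with the same genotype entry, sorted as mCherry+/GFP- at day 8 and as mCherry+/GFP+ and mCherry+/GFP- at days 10 and 12. The second batch also holds 3 Tet1 KO (mut/mut;GFP/wt) and 3 WT (wt/wt;GFP/wt) iPSC clones of a Tet1tm1Koh and Tg(Pou5f1-EGFP)2Mnn cross, at passage 6 to 7. All libraries are labelled male, all sorted cells were mCherry+, and the reprogramming factors are not given in the sources used here. The labels place tx2 GFP- cells at stage I, tx2 GFP+ cells at stages II (day 10) and III (day 12), nx2 GFP- cells at stage III, and nx2 GFP+ cells at stages IV (day 12) and V (day 14). The GFP gate thus separates different stages in the lines of each set. The iPSC were grown on feeder cells and depleted of them before harvest. MEF of the tx2 lines were not analysed here, and values were compared within a batch only.

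Library totals were 6540256 to 20783265 counts from 18838 to 21666 genes, and 3 counts in a library stood for 0.139 to 0.443 CPM (counts divided by the TMM-scaled library total, in the usual per-million unit). 2 libraries had over 8% mitochondrial counts, day 10 GFP- nx2 replicate 1 (8.99%) and WT iPSC replicate 1 (12.2%). The gate of day 12 GFP- tx2 replicate 2 rests on its source name, because its title lacks the mCherry mark. Tet1, the targeted gene, had 54.3, 58.5 and 57.2 CPM in KO clones, against 1300.3, 822 and 873 CPM in WT clones (log2 fold change -4.14 ± 0.18, adjusted p = 2.52e-11, edgeR quasi-likelihood test). Summed over 10 fibroblast markers, day 10 GFP- nx2 cells held 825 to 1355 CPM, against 20861 to 21727 CPM in MEF of the same batch. Summed over 6 pluripotent cell markers, nx2 iPSC held 2220 to 2388 CPM, against 1.59 to 2.34 CPM in MEF, which had Dppa4 at 0.

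Promoter windows of 300 bases (250 before and 50 after the start) were listed by RefSeq on GRCm38.p6 for 6 of the 9 members, with 9 starts in all. The windows below belong to Elf5, whose expression in the embryo is known to be gated by methylation of CpG dinucleotides in its promoter, and to Gata3 and Tfap2a, the members called in the comparison of Tet1 KO with WT iPSC. TET1 oxidises methylated CpG. Capitals mark every CpG, and each window is written 5′ to 3′ along its gene.
Elf5 upstream start, chr2:103411848-103412147, + strand: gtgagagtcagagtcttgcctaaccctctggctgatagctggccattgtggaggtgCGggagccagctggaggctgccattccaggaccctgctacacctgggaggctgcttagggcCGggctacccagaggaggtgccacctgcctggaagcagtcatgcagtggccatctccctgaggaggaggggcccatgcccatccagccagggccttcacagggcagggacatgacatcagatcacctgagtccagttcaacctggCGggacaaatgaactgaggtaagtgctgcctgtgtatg
Elf5 downstream start, chr2:103423818-103424117, + strand: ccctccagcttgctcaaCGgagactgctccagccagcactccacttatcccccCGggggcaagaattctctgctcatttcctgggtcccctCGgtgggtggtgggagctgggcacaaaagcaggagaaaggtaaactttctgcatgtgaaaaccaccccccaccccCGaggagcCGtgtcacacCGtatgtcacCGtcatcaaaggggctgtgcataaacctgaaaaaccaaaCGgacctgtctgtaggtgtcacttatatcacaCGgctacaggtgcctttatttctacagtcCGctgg
Gata3, chr2:9878551-9878850, - strand: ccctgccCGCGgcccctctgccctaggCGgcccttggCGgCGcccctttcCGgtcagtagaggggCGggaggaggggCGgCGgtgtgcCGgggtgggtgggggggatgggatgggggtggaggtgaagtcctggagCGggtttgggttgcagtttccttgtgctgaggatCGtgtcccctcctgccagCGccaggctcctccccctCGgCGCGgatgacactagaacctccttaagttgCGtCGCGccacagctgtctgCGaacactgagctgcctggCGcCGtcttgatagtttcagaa
Tfap2a start within the counted span, chr13:40733746-40734045, - strand: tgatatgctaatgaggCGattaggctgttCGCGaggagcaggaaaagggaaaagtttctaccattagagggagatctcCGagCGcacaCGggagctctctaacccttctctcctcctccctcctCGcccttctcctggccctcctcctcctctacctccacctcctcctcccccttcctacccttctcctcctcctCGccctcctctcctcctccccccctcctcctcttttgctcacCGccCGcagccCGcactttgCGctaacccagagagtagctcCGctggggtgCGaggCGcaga

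The upstream Elf5 window stood apart from the others by its few CpG. It held 3 CpG at 60.7% GC, with an observed over expected ratio of 0.11, and 14.7% of the 32851 mouse promoter windows had a lower ratio. The downstream Elf5 window held 10 CpG (ratio 0.442), Gata3 held 22 (0.658) and Tfap2a held 15 (0.621), where the median window has 7 CpG and a ratio of 0.384. Among the windows not printed, Cdx2 held 18 CpG (0.731), Eomes 10 (0.607), the Gata2 starts 32 (0.9) and 29 (0.76), and the upstream Tfap2a start 11 (0.71). Methylation was not measured in these libraries. Searched on both strands, the TEAD-type motif GGAATG was found in the upstream Elf5 window and the downstream Gata2 window, against 14.7% of all windows. The AP-2 motif GCCNNNGGC was found 3 times in the Gata3 window and once each in those of Cdx2 and the downstream Gata2 start, against 16.6% of all windows. The GATA motif AGATAA was in none of the 9, against 11.2% of all windows.

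Reads were counted over whole gene bodies. 8 of the 9 members share no base with another gene on their strand in the deposited annotation. Gata3 (chromosome 2, 9857078 to 9890034, - strand) shares 19.72% of its span with 9230102O04Rik, and reads in that stretch were counted for neither gene. The other spans, on the deposited mm10 annotation, are chromosome 5, 147300805 to 147307270 for Cdx2, chromosome 2, 103411688 to 103450989 for Elf5 and chromosome 9, 118478212 to 118486132 for Eomes. Gata2 lies on chromosome 6 at 88193891 to 88207032, Tead4 on chromosome 6 at 128224288 to 128300823 and Tfap2c on chromosome 2 at 172549593 to 172558622. Tfap2a lies on chromosome 13 at 40715675 to 40733823 and Hand1 on chromosome 11 at 57828705 to 57832818.

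In the nx2 lines the members took different courses. Cdx2, Elf5, Tfap2c and Hand1 had their highest mean in day 14 GFP- cells, with no library inside the range of any other group. How many of all genes do so was not counted, and Cdx2 held 11 counts or fewer in each other group. The Gata2 libraries of those cells overlapped those of MEF. Gata3 was highest in MEF, Tfap2a in day 10 GFP- cells, Tead4 in day 12 and day 10 GFP- cells, which overlapped, and Eomes in day 14 GFP-, day 14 GFP+ and iPSC libraries, which overlapped too. In bulk RNA, fewer cells that express a gene and less RNA of it per cell cannot be told apart.

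**Figure D1:**
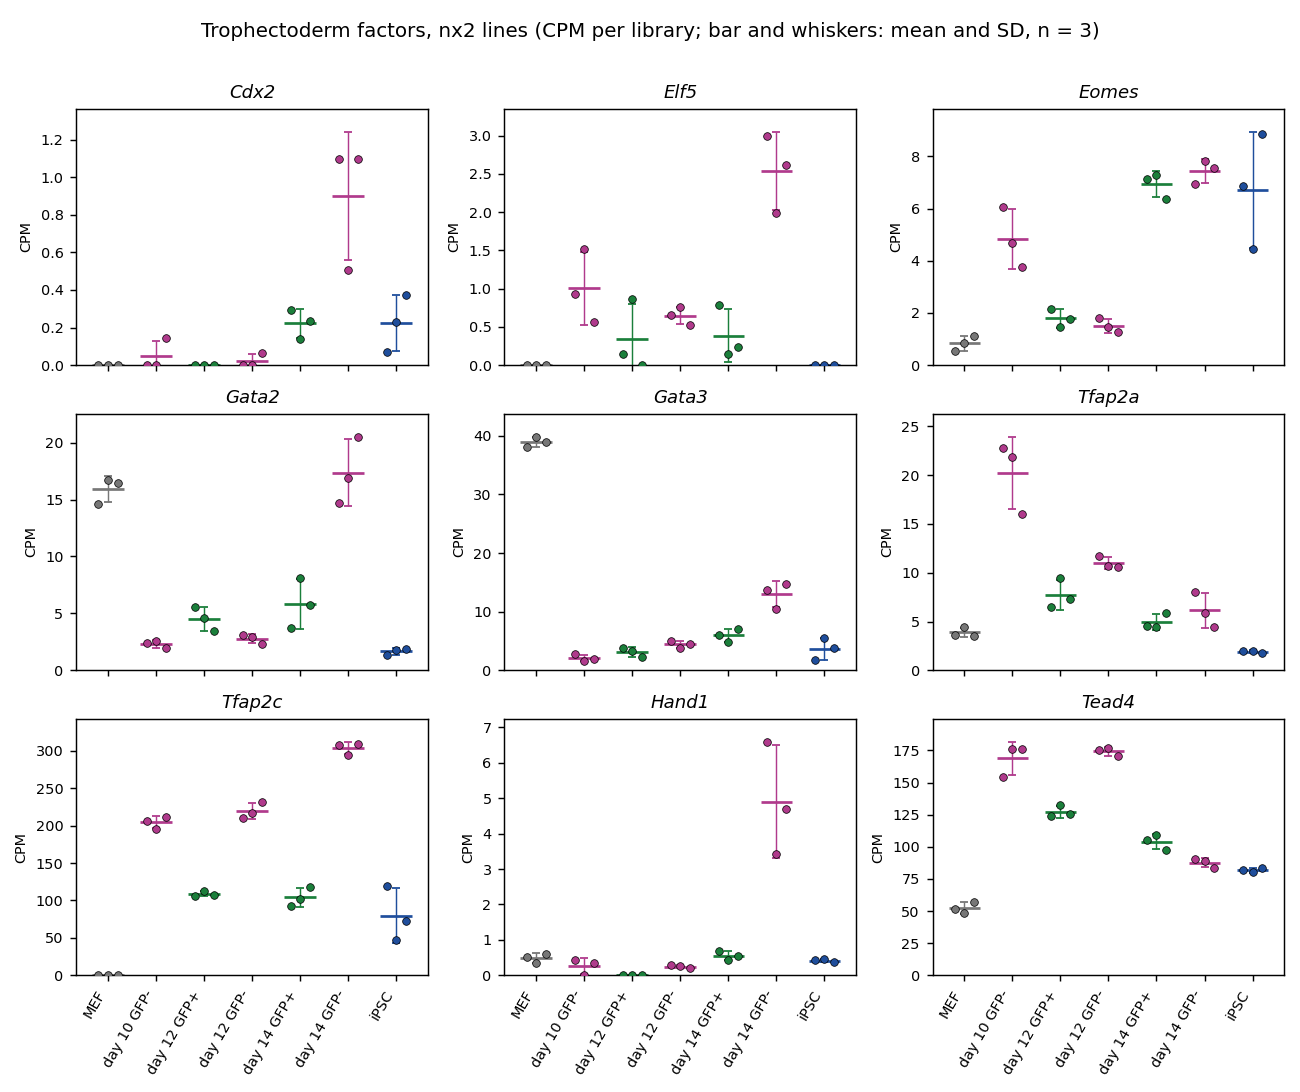
Level of the 9 members in the nx2 lines, in CPM on a linear axis starting at 0 in each panel. Points are libraries (lines 1 to 3 from left to right within a group), bars the mean and whiskers the SD of 3 libraries (green GFP+, magenta GFP-, grey MEF, blue iPSC); Cdx2, Elf5, Tfap2c and Hand1 are highest in day 14 GFP- cells.

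Between MEF and the earliest sorted nx2 cells, the fibroblast-expressed GATA factors fell and 5 members rose. Tfap2c showed the widest difference, with 207, 196 and 212 CPM in day 10 GFP- cells, against 0.234, 0.168 and 0.0591 CPM in MEF (log2 fold change 10.31 ± 0.41, adjusted p = 1.11e-13). The MEF libraries held 7 Tfap2c counts in all, and the ratio of counts was 1340 with a 95% interval of 650.2 to 3335 that covers counting error only. Tfap2a rose to 22.8, 21.9 and 16 CPM in day 10 GFP- cells, against 3.63, 4.46 and 3.54 CPM in MEF (log2 fold change 2.39 ± 0.21, adjusted p = 9.46e-10). Both AP-2 members were thus up at day 10 in every library, without overlap. Tead4 had 154, 176 and 176 CPM in day 10 GFP- cells, against 51.3, 48.6 and 57.4 CPM in MEF (log2 fold change 1.68 ± 0.07, adjusted p = 1.58e-14). Eomes had 6.06, 4.68 and 3.77 CPM in day 10 GFP- cells, against 0.528, 0.841 and 1.12 CPM in MEF (log2 fold change 2.53 ± 0.30, adjusted p = 1.11e-07). Elf5 had 0.925, 1.52 and 0.569 CPM in day 10 GFP- cells, against 0 counts in the 3 MEF libraries, at least 4.97-fold higher than a floor of 3 counts per library (adjusted p = 0.000201).

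Gata3 went the other way, with 2.69, 1.65 and 1.99 CPM in day 10 GFP- cells, against 38.1, 39.8 and 38.9 CPM in MEF (log2 fold change -4.22 ± 0.28, adjusted p = 1.38e-11). Gata2 had 2.44, 2.57 and 1.92 CPM in day 10 GFP- cells, against 14.7, 16.7 and 16.5 CPM in MEF (log2 fold change -2.78 ± 0.24, adjusted p = 9.2e-10). Hand1 was at 0.421, 0 and 0.356 CPM in day 10 GFP- cells, against 0.528, 0.336 and 0.591 CPM in MEF, and was not called (log2 fold change -0.99 ± 0.59, adjusted p = 0.134). Cdx2 held 2 counts over the day 10 GFP- libraries and 0 over the MEF libraries. The tally was 5 members higher and 2 lower of 8 tested, in a comparison where 76.4% of the 16132 genes tested were called, 38.8% higher and 37.6% lower, so the number called is close to the background. All p-values for single genes are from edgeR, adjusted by Benjamini-Hochberg over all genes tested. Values after ± are the SE from the same fit of all 21 libraries of a batch, with no line term, unless marked SD. The median log2 fold change was 2.04 over the 8 members and 0.06 over all genes. With library totals alone as the scale, the median of all genes moved by 0.28, to 0.34, and all 7 calls of members kept their sign.

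Within the GFP- gate of the nx2 lines, which the labels keep at stage III throughout, 5 of the 8 tested members rose between days 10 and 14. Of these, Hand1 passed the filter on low counts only through its day 14 GFP- libraries (114, 74 and 77 counts). Its rise, and its place in the nx2 counts and medians of members, thus partly follow from the filter. Hand1 had 0.421, 0 and 0.356 CPM at day 10, 0.283, 0.253 and 0.198 CPM at day 12 and 6.58, 3.42 and 4.7 CPM at day 14 (log2 fold change 4.27 ± 0.45, adjusted p = 1.04e-06 for day 14 against day 10). Gata2 had 2.44, 2.57 and 1.92 CPM at day 10, 3.11, 2.91 and 2.31 CPM at day 12 and 14.7, 16.9 and 20.5 CPM at day 14 (log2 fold change 2.90 ± 0.24, adjusted p = 2.52e-08). Gata3 had 2.69, 1.65 and 1.99 CPM at day 10, 4.91, 3.86 and 4.42 CPM at day 12 and 13.7, 10.5 and 14.8 CPM at day 14 (log2 fold change 2.63 ± 0.28, adjusted p = 5.46e-07). In all 3 genes every day 14 library lay above every day 10 and day 12 library, although Gata3 stayed under its MEF level.

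Cdx2 gave the same picture at few counts, with 0, 0 and 2 counts at day 10, 0, 0 and 1 at day 12, and 19, 11 and 18 at day 14 in the GFP- libraries of lines 1, 2 and 3. Fitted with no low-count filter, it was called higher at day 14 than at day 10 (edgeR, adjusted p = 0.000234). Elf5 had 0.925, 1.52 and 0.569 CPM at day 10, 0.661, 0.759 and 0.528 CPM at day 12 and 3.00, 1.99 and 2.62 CPM at day 14 (log2 fold change 1.31 ± 0.52, adjusted p = 0.0591). The libraries did not overlap, and it was called by the line-blocked fit (log2 fold change 1.36, adjusted p = 0.0459), with the groups alone (0.031), with library totals alone (0.0474) and without day 10 replicate 2 (0.0377). Eomes dipped at day 12, with 6.06, 4.68 and 3.77 CPM at day 10, 1.79, 1.45 and 1.25 CPM at day 12 and 6.93, 7.81 and 7.57 CPM at day 14 (log2 fold change 0.63 ± 0.23, adjusted p = 0.0407). Tfap2c had 207, 196 and 212 CPM at day 10, 211, 216 and 231 CPM at day 12 and 307, 295 and 309 CPM at day 14 (log2 fold change 0.57 ± 0.20, adjusted p = 0.0333). The Tfap2c call was lost on leaving out any of the 6 libraries (adjusted p = 0.0596 to 0.0891), and the Eomes call on leaving out any but day 10 replicate 1 (0.0602 to 0.163). Tfap2c was not called with no low-count filter either (0.0696), nor Eomes when the 2 groups were fitted alone (0.0509).

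Tfap2a and Tead4 declined over the same days. Tfap2a had 22.8, 21.9 and 16 CPM at day 10, 11.7, 10.7 and 10.6 CPM at day 12 and 8.02, 5.92 and 4.45 CPM at day 14 (log2 fold change -1.72 ± 0.19, adjusted p = 1.09e-06). Tead4 had 154, 176 and 176 CPM at day 10, 175, 177 and 171 CPM at day 12 and 90.3, 89.2 and 83.8 CPM at day 14 (log2 fold change -0.94 ± 0.07, adjusted p = 8.91e-09). For day 14 against day 10, 5 members were called higher and 2 lower of 8 tested, where 36.8% of all genes were called, 20.3% higher and 16.5% lower. Counts of all genes were 3280 higher and 2654 lower, and 4043 and 1830 with library totals alone as the scale. Fibroblast markers (10 of 10 detected) summed to 3208 to 5275 CPM at day 14, against 825 to 1355 CPM at day 10. Of 6 keratinocyte and surface epithelium markers, the day 10 libraries had Krt14 at 0 and day 14 had none at 0, with summed levels of 393.1 to 477.3 CPM at day 14 against 308.6 to 474.2 CPM at day 10. The part of these markers in the members' rise was not tested.

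Lists of other trophoblast genes were chosen with earlier results of these data known, so their counts are no independent support. In these GFP- cells 20.3% of all genes were higher and 16.5% lower at day 14 than at day 10. Of 19 trophoblast products 11 passed the filter on low counts and were tested. The rest had too few counts in the nx2 libraries for a test, so the counts of products describe the tested ones only. Among the 11, 10 rose and 0 fell between day 10 and day 14, with a median log2 fold change of 2.35 against 0.03 over all genes. Krt7, a keratin of simple epithelia and trophoblast, rose by 4.02 ± 0.29 (log2, adjusted p = 4.52e-09), and its partner Krt18 by 2.74 ± 0.21 (1.41e-08). Nrk, a kinase of the placental spongiotrophoblast, rose by 1.97 ± 0.17 (5.19e-08), and Plac1, a placental surface protein gene on the X chromosome, by 3.49 ± 0.31 (6.33e-08). Among 12 other trophoblast regulators 6 rose and 0 fell. Msx2, a homeobox factor, rose by 3.16 ± 0.27 (4.53e-08) and Dlx3, a homeobox factor of the placental labyrinth, by 3.61 ± 0.48 (8.39e-06). Cited2, a CBP/p300-binding coactivator, rose by 1.86 ± 0.29 (0.000101), and Klf5 by 0.94 ± 0.26 (0.00873).

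Cells that had switched on GFP held less of 3 members at day 12 and of 5 at day 14 than GFP- cells of the same nx2 lines. At day 12, Tfap2c had 106, 113 and 108 CPM in GFP+ cells, against 211, 216 and 231 CPM in GFP- cells (log2 fold change -1.01 ± 0.20, adjusted p = 0.00197). Tead4 had 124, 132 and 125 CPM in GFP+ cells, against 175, 177 and 171 CPM in GFP- cells (log2 fold change -0.45 ± 0.07, adjusted p = 0.000107). Both differences appeared in each of the 3 lines. Hand1 was 0 in all 3 libraries of GFP+ cells, against 3, 4 and 3 counts in GFP- cells, at least 1.08-fold lower at a floor of 3 counts per library (adjusted p = 0.0192). That call was lost without GFP+ replicate 1 (adjusted p = 0.058) or 2 (0.0572). The tally at day 12 was 0 members higher and 3 lower of 8, where 16.6% of all genes were called, 9.93% higher and 6.69% lower.

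Keratinocyte and surface epithelium markers summed to 204.4 to 227.4 CPM in day 12 GFP+ cells, with Krt5 and Krt14 at 0, against 306.7 to 354.9 CPM in GFP- cells, with Krt5 at 0, and their part in these calls was not tested. The remaining members were not called at day 12. Gata2 had 5.54, 4.59 and 3.42 CPM in GFP+ cells, against 3.11, 2.91 and 2.31 CPM in GFP- cells, without overlap (log2 fold change 0.72 ± 0.25, adjusted p = 0.0533). It was called higher by the line-blocked fit (log2 fold change 0.73, adjusted p = 0.0465), with the groups alone (0.0302), with DESeq2 (0.0434) and without GFP+ replicate 3 (0.0338). Tfap2a had 6.48, 9.44 and 7.27 CPM in GFP+ cells, against 11.7, 10.7 and 10.6 CPM in GFP- cells (log2 fold change -0.50 ± 0.20, adjusted p = 0.0891). It was called lower when the 2 groups were fitted alone (adjusted p = 0.027) and without GFP+ replicate 2 (log2 fold change -0.68, adjusted p = 0.0445). Gata3 had 2.28 to 3.81 CPM in GFP+ cells, against 3.86 to 4.91 CPM in GFP- cells. Eomes had 1.46 to 2.16 CPM in GFP+ cells, against 1.25 to 1.79 CPM in GFP- cells, and Elf5 0 to 0.864 CPM in GFP+ cells, against 0.528 to 0.759 CPM in GFP- cells. The Elf5 value of GFP+ cells rested on 1 library, replicate 2 with 13 of its 15 counts, and without it the gene was called lower (log2 fold change -2.92, adjusted p = 0.0489).

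At day 14 the members lower in GFP+ cells were Hand1, Elf5, Tfap2c, Gata2 and Gata3. Hand1 had 0.685, 0.425 and 0.549 CPM in GFP+ cells, against 6.58, 3.42 and 4.7 CPM in GFP- cells (log2 fold change -3.15 ± 0.41, adjusted p = 9.57e-06). Elf5 had 0.783, 0.142 and 0.235 CPM in GFP+ cells, against 3.00, 1.99 and 2.62 CPM in GFP- cells (log2 fold change -2.79 ± 0.63, adjusted p = 0.00279). Tfap2c had 92.6, 102 and 118 CPM in GFP+ cells, against 307, 295 and 309 CPM in GFP- cells (log2 fold change -1.54 ± 0.20, adjusted p = 1.84e-05). None of these 3 overlapped between the gates, and each was lower in the GFP+ cells of all 3 lines. Hand1 was tested in the nx2 lines only because of its day 14 GFP- libraries.

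Both GATA factors were lower in every line. Gata2 had 3.72, 8.07 and 5.73 CPM in GFP+ cells, against 14.7, 16.9 and 20.5 CPM in GFP- cells (log2 fold change -1.55 ± 0.22, adjusted p = 1.41e-05). Gata3 had 5.97, 4.88 and 6.98 CPM in GFP+ cells, against 13.7, 10.5 and 14.8 CPM in GFP- cells (log2 fold change -1.13 ± 0.25, adjusted p = 0.00156). Tead4 was slightly higher, with 105, 109 and 97.8 CPM in GFP+ cells, against 90.3, 89.2 and 83.8 CPM in GFP- cells (log2 fold change 0.25 ± 0.07, adjusted p = 0.0117), a call lost without GFP+ replicate 2 (adjusted p = 0.0621), without GFP- replicate 3 (0.0549) or with no low-count filter (0.058). Eomes had 6.35 to 7.29 CPM in GFP+ cells, against 6.93 to 7.81 CPM in GFP- cells, and Tfap2a 4.39 to 5.88 CPM in GFP+ cells, against 4.45 to 8.02 CPM in GFP- cells. Neither was called, and their libraries overlapped. Cdx2 held 3, 2 and 3 counts in GFP+ cells, against 19, 11 and 18 counts in GFP- cells. With no low-count filter it was called lower (adjusted p = 0.0213).

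The tally at day 14 was 1 member higher and 5 lower of 8, where 31.3% of all genes were called, 14.4% higher and 16.9% lower, and the median was -1.34 over the members and -0.02 over all genes. Trophoblast products were lower in GFP+ cells at both days. Of 11 tested, 0 were higher and 10 lower at day 12, where 6.69% of all genes were lower. At day 14, 0 were higher and 11 lower, where 16.9% of all genes were lower. Nrk fell by 1.93 ± 0.22 (log2, adjusted p = 1.96e-06) at day 12 and by 3.19 ± 0.19 (2.41e-10) at day 14. Plac1 had 2 counts in day 12 GFP+ cells, against 35 counts in GFP- cells, a ratio of 0.0588 per library total (95% interval 0.00686 to 0.229, counting error only, adjusted p = 6.98e-05), and fell by 3.93 ± 0.33 (2.44e-08) at day 14. The reproductive homeobox gene Rhox6 fell by 1.26 ± 0.18 (8.16e-05) and by 3.13 ± 0.20 (2.2e-09). Keratinocyte and surface epithelium markers were summed at 160.3 to 197.0 CPM in day 14 GFP+ cells, against 393.1 to 477.3 CPM in GFP- cells, with none of the 6 at 0 in either. Fibroblast markers summed to 1640 to 2707 CPM in day 14 GFP+ cells, against 3208 to 5275 CPM in GFP- cells. The fibroblast markers summed to 1293 to 3443 CPM in nx2 iPSC, so a sum does not by itself show such cells. The part of these markers in the members' difference was not tested.

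The difference between the gates itself changed between days for 2 members, in a test where 1.54% of all genes were called, 0.688% higher and 0.855% lower. For Gata2 the GFP effect at day 14 minus that at day 12 was a log2 fold change -2.27 ± 0.33, adjusted p = 0.000705, with estimates of -1.55 at day 14 and 0.72 at day 12. For Tead4 it was a log2 fold change 0.70 ± 0.10, adjusted p = 0.000644, with estimates of 0.25 at day 14 and -0.45 at day 12. No other member was called in that test. Tfap2c, at -0.54 ± 0.28 (adjusted p = 0.495), was called only when the 4 groups were fitted alone (adjusted p = 0.00489).

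**Figure D2:**
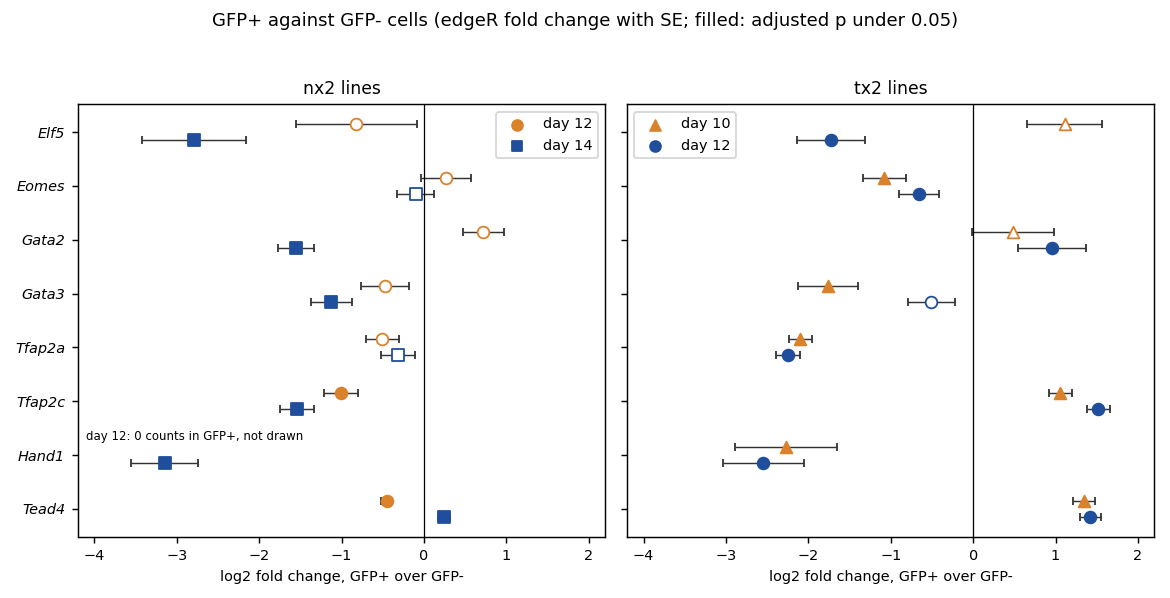
Log2 fold change of GFP+ over GFP- cells for the 8 tested members in the nx2 lines (left) and the tx2 lines (right). Points are edgeR estimates, with 3 libraries per group, and filled points have an adjusted p under 0.05. Whiskers are the SE from the fit of all 21 libraries of a batch with no line term, not an SE over lines. Tfap2c and Tead4 lie on the lower side at day 12 in nx2 and on the higher side at both days in tx2. Hand1 at nx2 day 12 is not drawn because GFP+ cells held 0 counts.

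Among GFP+ nx2 cells, 3 members rose and 2 fell between stages IV and V (8 tested, 30.5% of all genes called, 14.5% higher and 16% lower). Eomes, the T-box factor of trophoblast stem cells that also acts in early mesendoderm, had 7.15, 7.29 and 6.35 CPM at day 14, against 2.16, 1.46 and 1.75 CPM at day 12 (log2 fold change 1.95 ± 0.27, adjusted p = 1.49e-05). Gata3 had 5.97, 4.88 and 6.98 CPM at day 14, against 3.81, 3.26 and 2.28 CPM at day 12 (log2 fold change 0.91 ± 0.28, adjusted p = 0.0181). Hand1 rose to 0.685, 0.425 and 0.549 CPM at day 14, at least 2.45-fold above the floor for the 0 counts at day 12 (adjusted p = 0.00081). Tfap2a had 4.5, 4.39 and 5.88 CPM at day 14, against 6.48, 9.44 and 7.27 CPM at day 12 (log2 fold change -0.65 ± 0.21, adjusted p = 0.023). Tead4 had 105, 109 and 97.8 CPM at day 14, against 124, 132 and 125 CPM at day 12 (log2 fold change -0.29 ± 0.07, adjusted p = 0.00405). Cdx2 held 8 counts over the day 14 libraries and 0 over the day 12 libraries. With no low-count filter it was called higher at day 14 (edgeR, adjusted p = 0.0268). Single libraries decided the Gata3 and Tfap2a calls: without replicate 3 of day 14 or of day 12 Gata3 had an adjusted p of 0.0816 or 0.0794, and Tfap2a lost its call without day 14 replicate 1 (0.0783) or 2 (0.0943) or day 12 replicate 2 (0.142). Fibroblast markers, with 10 of 10 detected, summed to 1640 to 2707 CPM at day 14, against 564 to 1095 CPM at day 12, and their part in the Gata3 rise was not tested.

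No member rose between day 14 GFP+ cells and nx2 iPSC, and 4 of 8 fell, where 46.8% of all genes were called, 24.3% higher and 22.5% lower. Elf5 was 0 in all 3 libraries of iPSC, against 0.783, 0.142 and 0.235 CPM in day 14 GFP+ cells, at least 2.04-fold lower (adjusted p = 0.0139; 0.0634 without day 14 GFP+ replicate 1). Gata2 had 1.34, 1.77 and 1.86 CPM in iPSC, against 3.72, 8.07 and 5.73 CPM in day 14 GFP+ cells (log2 fold change -1.82 ± 0.26, adjusted p = 7.38e-06). Tfap2a had 1.98, 1.99 and 1.74 CPM in iPSC, against 4.5, 4.39 and 5.88 CPM in day 14 GFP+ cells (log2 fold change -1.37 ± 0.24, adjusted p = 7.86e-05). These 3 were low in every iPSC line. Keratinocyte and surface epithelium markers summed to 58.9 to 64.1 CPM in iPSC, against 160.3 to 197.0 CPM in day 14 GFP+ cells, with none of the 6 at 0 in either, and their part in the lower Tfap2a was not tested. Tead4 had 81.6, 80.0 and 83.7 CPM in iPSC, against 105, 109 and 97.8 CPM in day 14 GFP+ cells (log2 fold change -0.35 ± 0.07, adjusted p = 0.000469). Tfap2c varied among the iPSC lines, at 119.8, 46.7 and 73 CPM, and was not called (log2 fold change -0.39 ± 0.20, adjusted p = 0.132), but without iPSC replicate 1 it was called lower (log2 fold change -0.80, adjusted p = 6.53e-05). Gata3 had 1.77, 5.53 and 3.78 CPM in iPSC, against 5.97, 4.88 and 6.98 CPM in day 14 GFP+ cells, and was not called (log2 fold change -0.66 ± 0.27, adjusted p = 0.051). It was called lower without iPSC replicate 2 (log2 fold change -1.07, adjusted p = 0.00318), without day 14 GFP+ replicate 2 (0.042), with library totals alone (0.0341) and with DESeq2 (0.0345).

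Set against MEF, nx2 iPSC held 3 members at higher and 3 at lower levels of 8 tested, where 77.3% of all genes were called, 37.9% higher and 39.4% lower. Tfap2c (log2 fold change 8.95 ± 0.42, adjusted p = 1.24e-12), Eomes (log2 fold change 3.00 ± 0.29, adjusted p = 5.3e-09) and Tead4 (log2 fold change 0.64 ± 0.07, adjusted p = 6.71e-08) were higher in iPSC. Gata3 (log2 fold change -3.37 ± 0.26, adjusted p = 1.32e-10), Gata2 (log2 fold change -3.25 ± 0.25, adjusted p = 1.14e-10) and Tfap2a (log2 fold change -1.01 ± 0.24, adjusted p = 0.000591) were lower in iPSC. Hand1 was at 0.372 to 0.456 CPM in iPSC and 0.336 to 0.591 CPM in MEF. Elf5 had 0 counts in all 6 libraries. Cdx2 held 11 counts over the iPSC libraries and 0 over the MEF libraries. With no low-count filter it was called higher in iPSC (edgeR, adjusted p = 0.00335). Counts of all genes were 6114 higher and 6351 lower, and 7582 and 5238 with library totals alone as the scale, which moved the median of all genes by 0.29.

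In the tx2 lines, which the labels place at earlier stages, the order of groups differed from gene to gene. Hand1 and Elf5 had their highest mean in day 12 GFP- cells, Elf5 with libraries that overlapped those of day 10 GFP+ cells. Tfap2a was highest in day 8 and day 10 GFP- cells, which overlapped, and Tfap2c in day 12 GFP+ cells. Tead4 was highest in day 12 and day 10 GFP+ cells, which overlapped, and Gata2 in day 12 GFP+ cells. Gata3 was highest in WT iPSC. Eomes was highest in day 12 GFP- cells, and Cdx2 in WT iPSC, in each case with libraries that overlapped the next group.

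**Figure D3:**
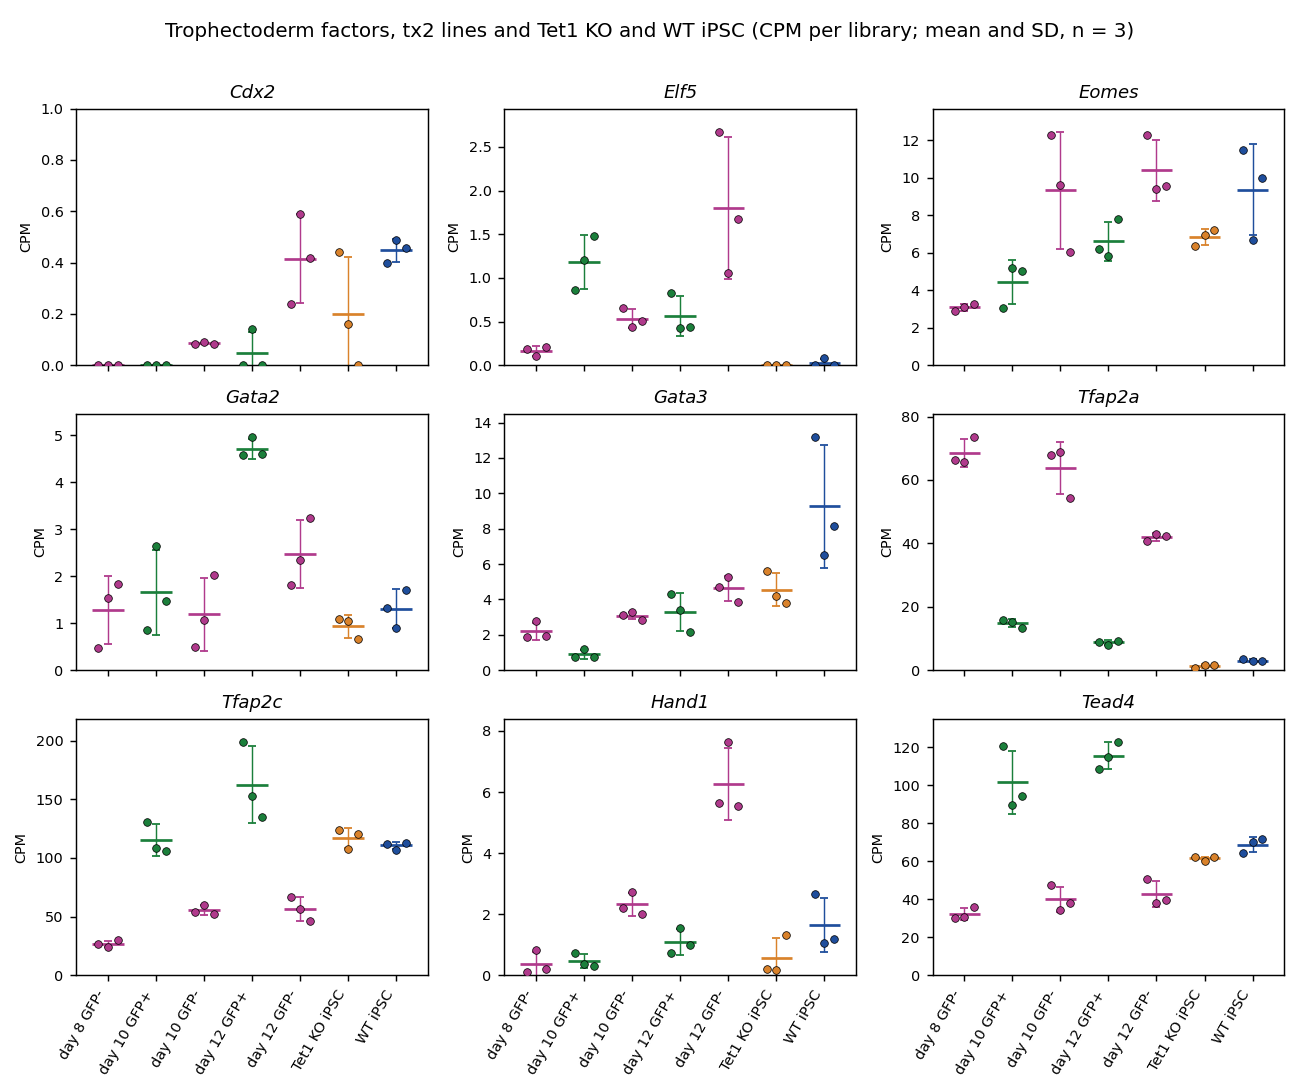
Level of the 9 members in the tx2 lines and in Tet1 KO and WT iPSC, in CPM on a linear axis starting at 0 in each panel. Points are libraries, bars the mean and whiskers the SD of 3 libraries (green GFP+, magenta GFP-, orange Tet1 KO iPSC, blue WT iPSC); Tfap2a is highest in GFP- cells, while Tfap2c and Tead4 are higher in GFP+ than in GFP- cells at days 10 and 12.

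Within the tx2 GFP- gate 6 of 8 members rose and 1 fell between days 8 and 12, where 31.6% of all genes were called, 17.1% higher and 14.5% lower. Hand1 had 0.0938, 0.821 and 0.205 CPM at day 8, 2.21, 2.74 and 2.02 CPM at day 10 and 5.63, 7.63 and 5.55 CPM at day 12 (log2 fold change 4.05 ± 0.57, adjusted p = 3.74e-05 for day 12 against day 8). Elf5 had 0.188, 0.103 and 0.205 CPM at day 8, 0.654, 0.442 and 0.504 CPM at day 10 and 2.67, 1.06 and 1.68 CPM at day 12 (log2 fold change 3.43 ± 0.52, adjusted p = 0.000104). The mean of both was higher at each later day, and no day 12 library overlapped a day 8 library. Elf5 passed the filter on low counts in this batch only with its day 12 GFP- libraries (56, 9 and 16 counts). Eomes had 2.91, 3.08 and 3.27 CPM at day 8, 12.3, 9.64 and 6.05 CPM at day 10 and 12.3, 9.4 and 9.53 CPM at day 12 (log2 fold change 1.76 ± 0.26, adjusted p = 5.95e-05). Tfap2c had 26.8, 24.4 and 29.8 CPM at day 8, 54, 60.1 and 52.1 CPM at day 10 and 66.5, 56.8 and 46 CPM at day 12 (log2 fold change 1.07 ± 0.14, adjusted p = 2.29e-05). Gata3 had 1.88, 2.77 and 1.94 CPM at day 8, 3.11, 3.27 and 2.86 CPM at day 10 and 4.72, 5.29 and 3.88 CPM at day 12 (log2 fold change 1.07 ± 0.30, adjusted p = 0.00971).

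Tead4 rose a little, to 38.3 to 50.7 CPM at day 12 against 30.4 to 36 CPM at day 8 (log2 fold change 0.42 ± 0.13, adjusted p = 0.0224), a call lost without day 12 replicate 1 (adjusted p = 0.172) or day 8 replicate 1 (0.0857) or 2 (0.0662). Tfap2a fell, with 40.7, 43.1 and 42.4 CPM at day 12, against 66.2, 65.7 and 73.5 CPM at day 8 (log2 fold change -0.70 ± 0.13, adjusted p = 0.000527). Gata2 was not called (log2 fold change 0.92 ± 0.46, adjusted p = 0.142), but the line-blocked fit called it higher at day 12 (log2 fold change 0.99, adjusted p = 0.0392). Cdx2 had 0 counts at day 8, 1 count in each library at day 10, and 5, 5 and 4 counts at day 12. With no low-count filter it was called higher at day 12 than at day 8 (edgeR, adjusted p = 0.00879). Of 11 trophoblast products tested, 8 rose and 2 fell. Plac1 rose by 3.75 ± 0.48 (log2, adjusted p = 1.56e-05) and Peg10, an imprinted placental gene, fell by 2.19 ± 0.21 (6.09e-07). Fibroblast markers summed to 9281 to 12447 CPM at day 12, against 13514 to 21043 CPM at day 8. The keratinocyte and surface epithelium markers summed to 383.1 to 467.7 CPM at day 12, with none at 0, against 323.6 to 382.7 CPM at day 8, with Krt14 at 0. Their part in the rise was not tested.

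Between the tx2 gates the members split. Tfap2a, the ectodermal AP-2 factor, had the smallest adjusted p of the members lower in GFP+ cells, with 15.8, 15.4 and 13.3 CPM in day 10 GFP+ cells, against 68, 68.8 and 54.2 CPM in GFP- cells (log2 fold change -2.10 ± 0.14, adjusted p = 2.62e-09). At day 12 it had 9.06, 7.94 and 9.37 CPM in GFP+ cells, against 40.7, 43.1 and 42.4 CPM in GFP- cells (log2 fold change -2.25 ± 0.15, adjusted p = 3.19e-10). Hand1 was lower too, with 0.737, 0.36 and 0.296 CPM in day 10 GFP+ cells, against 2.21, 2.74 and 2.02 CPM in GFP- cells (log2 fold change -2.27 ± 0.62, adjusted p = 0.0116). At day 12 it had 0.732, 1.56 and 1.01 CPM in GFP+ cells, against 5.63, 7.63 and 5.55 CPM in GFP- cells (log2 fold change -2.55 ± 0.49, adjusted p = 0.00017). Neither gene overlapped between the gates at either day. The day 10 call of Hand1 was lost without GFP+ replicate 2 (adjusted p = 0.0509) or 3 (0.0513). Eomes had 3.07, 5.16 and 5.02 CPM in day 10 GFP+ cells, against 12.3, 9.64 and 6.05 CPM in GFP- cells (log2 fold change -1.08 ± 0.26, adjusted p = 0.00467). At day 12 it had 6.22, 5.81 and 7.78 CPM in GFP+ cells, against 12.3, 9.4 and 9.53 CPM in GFP- cells (log2 fold change -0.65 ± 0.24, adjusted p = 0.0263), a call lost without GFP+ replicate 1 (adjusted p = 0.0775) or 2 (0.0842) or GFP- replicate 1 (0.124).

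Tfap2c and Tead4 were higher in tx2 GFP+ cells at both days. Tfap2c had 131, 109 and 106 CPM in day 10 GFP+ cells, against 54, 60.1 and 52.1 CPM in GFP- cells (log2 fold change 1.06 ± 0.14, adjusted p = 1.28e-05). At day 12 it had 199, 153 and 135 CPM in GFP+ cells, against 66.5, 56.8 and 46 CPM in GFP- cells (log2 fold change 1.52 ± 0.14, adjusted p = 2.65e-08). Tead4 had 121, 89.8 and 94.1 CPM in day 10 GFP+ cells, against 47.4, 34.6 and 37.8 CPM in GFP- cells (log2 fold change 1.35 ± 0.13, adjusted p = 3.38e-07). At day 12 it had 109, 115 and 123 CPM in GFP+ cells, against 50.7, 38.3 and 39.6 CPM in GFP- cells (log2 fold change 1.42 ± 0.13, adjusted p = 2.81e-08). Every GFP+ library of both genes lay above every GFP- library. The 6 primordial germ cell markers summed to 64.7 to 74.0 CPM in day 10 GFP+ cells, with none at 0, against 4.71 to 5.57 CPM in GFP- cells, with Dazl at 0. At day 12 they summed to 120.7 to 147.9 CPM in GFP+ cells, against 7.16 to 8.54 CPM in GFP- cells, with none at 0 in either. The iPSC of the same batch held 118.7 to 174.9 CPM (WT) and 93.4 to 105.8 CPM (Tet1 KO) of these markers. In nx2 cells the same markers summed to 96.6 to 106.9 CPM in day 12 GFP+ cells, against 97.5 to 117.0 CPM in GFP- cells. At day 14 the nx2 sums were 161.7 to 179.2 CPM in GFP+ cells, against 173.7 to 192.5 CPM in GFP- cells, while Tfap2c was lower in nx2 GFP+ cells at both days. The part of these markers in the Tfap2c differences was not tested.

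Gata3 had 0.737, 1.2 and 0.739 CPM in day 10 GFP+ cells, against 3.11, 3.27 and 2.86 CPM in GFP- cells (log2 fold change -1.76 ± 0.36, adjusted p = 0.0013). At day 12 it was not called (log2 fold change -0.51 ± 0.29, adjusted p = 0.131), but it was called lower by the line-blocked fit (log2 fold change -0.54, adjusted p = 0.0381) and without GFP+ replicate 1 (-0.78, 0.0475). Gata2 had 4.57, 4.96 and 4.61 CPM in day 12 GFP+ cells, against 1.81, 2.35 and 3.25 CPM in GFP- cells (log2 fold change 0.96 ± 0.41, adjusted p = 0.0493). That call was lost with library totals alone (adjusted p = 0.0626), with DESeq2 (0.0571), with no low-count filter (0.0576) and without any 1 of 5 of the 6 libraries (0.0826 to 0.186). Elf5 had 0.823, 0.425 and 0.432 CPM in day 12 GFP+ cells, against 2.67, 1.06 and 1.68 CPM in GFP- cells (log2 fold change -1.72 ± 0.42, adjusted p = 0.00168). Cdx2 held 0, 1 and 0 counts in day 12 GFP+ cells, against 5, 5 and 4 counts in GFP- cells, and was called lower with no low-count filter (adjusted p = 0.0194). At day 10 it held 0 counts in GFP+ cells, against 1 count in each GFP- library.

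At day 10 Elf5 had 0.859, 1.2 and 1.48 CPM in GFP+ cells, against 0.654, 0.442 and 0.504 CPM in GFP- cells, without overlap, and was not called (log2 fold change 1.11 ± 0.46, adjusted p = 0.0976). The GFP effect at day 12 minus that at day 10 was a log2 fold change -2.83 ± 0.62, adjusted p = 0.00325 for Elf5, the one member called in that test, where 27.3% of all genes were called, 10.5% higher and 16.7% lower. Under the line block Gata3 (1.29, adjusted p = 0.0125) and Tfap2c (0.48, adjusted p = 0.0247) were called in it as well. Gata3 was also called with RLE factors (0.0479), library totals (0.0417), the groups alone (0.0346) or without day 12 GFP+ replicate 3 (0.0237). Tfap2c was called without replicate 1 of day 10 GFP+ (0.0422) or day 12 GFP- cells (0.0298), or without day 12 GFP+ replicate 3 (0.0364). Of 8 members, 2 were higher and 4 lower at day 10 (22.4% of all genes called, 13% higher and 9.36% lower), and 3 higher and 4 lower at day 12 (61.6% of all genes called, 31.2% higher and 30.4% lower). Trophoblast products did not share one direction, with 4 higher and 1 lower of 11 tested at day 10 and 3 higher and 2 lower at day 12. Phlda2, an imprinted gene that limits placental growth, was higher by 3.26 ± 0.20 (log2, adjusted p = 8.87e-11) at day 12, and Peg10 was lower, at -1.18 ± 0.20 (5.96e-05). Summed keratinocyte and surface epithelium markers were at 178.0 to 238.4 CPM in day 12 GFP+ cells, with Krt15 at 0, against 383.1 to 467.7 CPM in GFP- cells, and fibroblast markers at 2204 to 2643 CPM in GFP+ cells, against 9281 to 12447 CPM in GFP- cells. At day 10 the keratinocyte and surface epithelium sums were 194.9 to 232.9 CPM in GFP+ cells, with Krt5 and Krt15 at 0, against 409.2 to 526.5 CPM in GFP- cells, with Krt15 at 0. The day 10 fibroblast sums overlapped, at 4394 to 11764 CPM in GFP+ cells, against 3009 to 8479 CPM in GFP- cells. The part of these markers in the lower Tfap2a, Hand1, Eomes and Elf5 values was not tested.

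Among tx2 GFP+ cells 3 members rose and 1 fell of 8 between stages II and III, where 25.1% of all genes were called, 12.2% higher and 12.9% lower. Gata3 had 4.3, 3.4 and 2.16 CPM at day 12, against 0.737, 1.2 and 0.739 CPM at day 10 (log2 fold change 1.84 ± 0.37, adjusted p = 0.00126). Gata2 had 4.57, 4.96 and 4.61 CPM at day 12, against 0.859, 2.64 and 1.48 CPM at day 10 (log2 fold change 1.49 ± 0.45, adjusted p = 0.0196). Tfap2c (log2 fold change 0.50 ± 0.14, adjusted p = 0.0118) rose and Tfap2a (log2 fold change -0.75 ± 0.16, adjusted p = 0.00175) fell, with the levels given above. Gata2 lost its call without day 10 replicate 1 (adjusted p = 0.0796) or 3 (0.0664), and Tfap2c without day 12 replicate 1 (0.1) or day 10 replicate 2 (0.061) or 3 (0.057). Fibroblast markers summed to 2204 to 2643 CPM at day 12, against 4394 to 11764 CPM at day 10. Summed over 6 blood markers, GFP+ cells held 139.5 to 152.6 CPM at day 12, against 64.1 to 96.3 CPM at day 10, and primordial germ cell markers 120.7 to 147.9 CPM at day 12, against 64.7 to 74.0 CPM at day 10. WT iPSC of the same batch held 141.7 to 181.0 CPM of the blood markers and 118.7 to 174.9 CPM of the germ cell markers. The sums are thus not particular to blood or germ cells. No marker of these lists was at 0, and their part in these changes was not tested.

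WT iPSC of the same batch were set against the tx2 day 12 GFP+ cells, which come from other mouse lines, so strain and stage cannot be told apart there. Gata3 was higher, with 13.2, 6.51 and 8.15 CPM in WT iPSC, against 4.3, 3.4 and 2.16 CPM in day 12 GFP+ cells (log2 fold change 1.49 ± 0.28, adjusted p = 0.000218). Gata2 had 1.33, 0.895 and 1.71 CPM in WT iPSC, against 4.57, 4.96 and 4.61 CPM in day 12 GFP+ cells (log2 fold change -1.81 ± 0.43, adjusted p = 0.00194). Tfap2a had 3.46, 2.93 and 2.79 CPM in WT iPSC, against 9.06, 7.94 and 9.37 CPM in day 12 GFP+ cells (log2 fold change -1.55 ± 0.18, adjusted p = 8.51e-07). Tfap2c (log2 fold change -0.55 ± 0.14, adjusted p = 0.00225) and Tead4 (log2 fold change -0.74 ± 0.13, adjusted p = 9.02e-05) were lower in WT iPSC as well. Elf5 held 1 count over the WT iPSC libraries, against 18 over the day 12 GFP+ libraries, a ratio of 0.0474 per library total (95% interval 0.00114 to 0.300, counting error only; edgeR adjusted p = 0.000738). Eomes was not called (log2 fold change 0.48 ± 0.25, adjusted p = 0.109), but was called higher without WT replicate 2 (log2 fold change 0.70, adjusted p = 0.0295). Cdx2 held 17 counts over the WT iPSC libraries, against 1 over the day 12 GFP+ libraries. With no low-count filter it was called higher in WT iPSC (edgeR, adjusted p = 0.0134). Of the 8 members tested, 1 was higher and 5 were lower, where 51.1% of all genes were called, 25% higher and 26% lower. Over all genes 3804 were higher and 3957 lower (2802 and 4684 with library totals alone, which moved the median of all genes by -0.13).

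Loss of Tet1 went with lower Gata3 and Tfap2a in iPSC, and no member was higher. Gata3 had 5.6, 4.2 and 3.83 CPM in Tet1 KO clones, against 13.2, 6.51 and 8.15 CPM in WT clones (log2 fold change -1.01 ± 0.27, adjusted p = 0.0219). Tfap2a had 0.659, 1.62 and 1.75 CPM in Tet1 KO clones, against 3.46, 2.93 and 2.79 CPM in WT clones (log2 fold change -1.13 ± 0.23, adjusted p = 0.00372). All 3 KO clones were below all 3 WT clones for both genes. These 2 of 8 members were called where 10.7% of all genes were called, 4.78% higher and 5.87% lower, and the median log2 fold change was -0.75 over the members and -0.04 over all genes. Neither call was kept when the KO and WT libraries were fitted alone (adjusted p = 0.134 for Gata3 and 0.138 for Tfap2a). The Gata3 call was also lost without WT replicate 1 (log2 fold change -0.69, adjusted p = 0.0892), the library with 12.2% mitochondrial counts, and without KO replicate 2 (0.0885) or 3 (0.101).

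The other members did not pass the test between the genotypes. Hand1 had 0.22, 0.162 and 1.31 CPM in Tet1 KO clones, against 2.66, 1.06 and 1.2 CPM in WT clones (log2 fold change -1.50 ± 0.61, adjusted p = 0.118). KO replicate 3 alone lay among the WT values, and without it Hand1 was called lower (log2 fold change -2.96, adjusted p = 0.0172). Eomes had 6.37, 6.95 and 7.22 CPM in Tet1 KO clones, against 11.5, 6.67 and 9.97 CPM in WT clones (log2 fold change -0.44 ± 0.25, adjusted p = 0.264). Tead4 had 62.1, 60.4 and 62.1 CPM in Tet1 KO clones, against 64.5, 70.1 and 71.8 CPM in WT clones, without overlap (log2 fold change -0.16 ± 0.13, adjusted p = 0.441). Tfap2c had 107 to 124 CPM in Tet1 KO clones, against 107 to 113 CPM in WT clones (log2 fold change 0.08 ± 0.14, adjusted p = 0.741). Gata2 had 0.656 to 1.1 CPM in Tet1 KO clones, against 0.895 to 1.71 CPM in WT clones (log2 fold change -0.50 ± 0.51, adjusted p = 0.567). Cdx2 held 4, 2 and 0 counts in Tet1 KO clones, against 3, 6 and 8 counts in WT clones, and Elf5 0 counts in KO clones, against 1 count in WT clones. At these counts a difference in Cdx2 or Elf5 was not detectable (adjusted p = 0.537 for Cdx2 with no low-count filter). Keratinocyte and surface epithelium markers summed to 83.7 to 97.3 CPM in KO clones, with Krt5 at 0, against 61.3 to 81.8 CPM in WT clones, and fibroblast markers to 1887 to 2613 CPM in KO clones, against 1728 to 2061 CPM in WT clones.

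**Figure D4:**
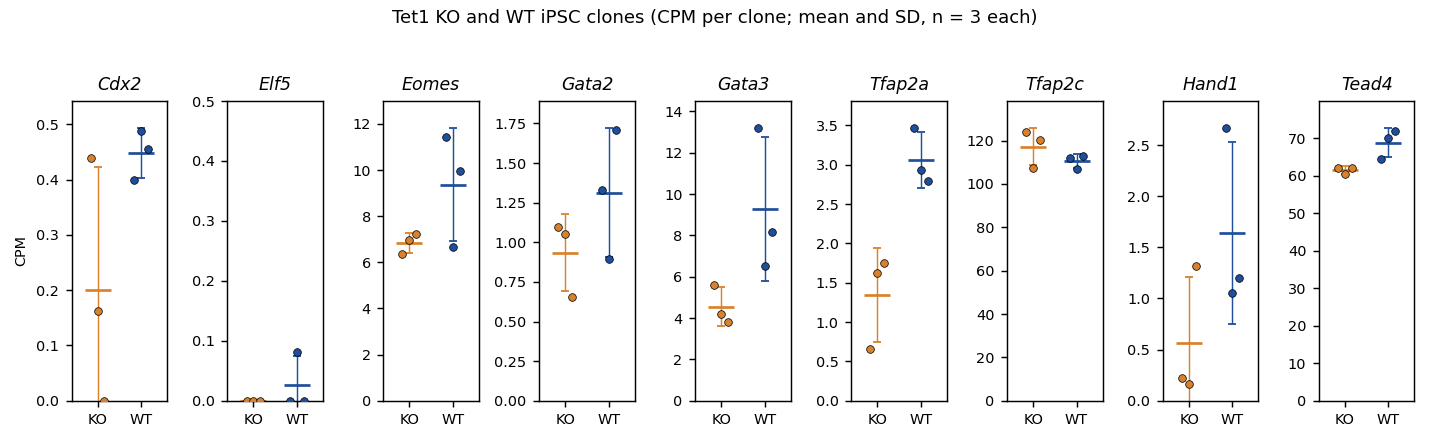
Level of the 9 members in Tet1 KO (orange) and WT (blue) iPSC clones, in CPM on linear axes starting at 0. Points are clones, bars the mean and whiskers the SD of 3 clones; Gata3 and Tfap2a, the 2 called members, lie lower in all 3 KO clones than in any WT clone.

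Counts of the other lists stand beside the 10.7% of all genes called between the genotypes, 4.78% higher and 5.87% lower. Of 12 other trophoblast regulators 9 were tested, and 0 were called (edgeR). Of 11 trophoblast products tested 1 was higher and 2 were lower in Tet1 KO clones. Peg10 was lower, at -1.59 ± 0.20 (log2, adjusted p = 5.94e-05), Wnt7b, a WNT ligand of the placental interface, at -1.69 ± 0.41 (0.0117), and Phlda2 was higher by 0.60 ± 0.16 (0.0219). Among 12 tested relatives of the members, Gata6, the primitive endoderm GATA factor, was lower, at -1.70 ± 0.47 (0.0245) and no other was called. Of 16 Hippo and Notch genes, Notch1 was the one called, higher by 0.42 ± 0.12 (0.0325). Over all genes 727 were higher and 892 lower, and 760 and 598 with library totals alone.

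The Hippo and Notch genes that feed into Cdx2 set the members in context. In day 10 GFP- nx2 cells 4 of 16 were higher and 12 lower than in MEF, where 38.8% of all genes were higher and 37.6% lower. Amot, Amotl1 and Amotl2, the angiomotins that hold YAP at junctions, were lower, at -4.49 ± 0.19 (log2, adjusted p = 1.5e-14), -2.72 ± 0.10 (1.75e-15) and -3.32 ± 0.12 (1.29e-15), and Nf2, the Merlin gene, was higher by 1.47 ± 0.08 (3.6e-13). Tead3, a relative of Tead4, was lower there, at -3.12 ± 0.17 (5.27e-13), opposite to Tead4. In tx2 day 12 GFP+ cells, 3 of the 16 were higher and 8 lower than in GFP- cells, where 61.6% of all genes were called, so the number called is close to the background. There Rbpj, the Notch effector that acts on Cdx2, was higher by 1.31 ± 0.10 (1.48e-09), and Tead3 lower, at -1.49 ± 0.16 (2.13e-07). Among the other relatives, Elf3, an epithelial ETS factor related to Elf5, had 52.9 ± 7.64 CPM in day 10 GFP- nx2 cells (SD, n = 3), against 0 counts in MEF. Cdx1, the relative of Cdx2, was higher in day 14 GFP+ than in day 14 GFP- nx2 cells by 2.35 ± 0.33 (1.55e-05), opposite in sign to Cdx2.

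The list of inner cell mass genes includes Pou5f1, whose reporter sets the GFP gate, so higher counts in GFP+ cells are partly fixed by the sort. Of 9 inner cell mass genes tested, 4 were higher, 0 lower and 5 not called in nx2 GFP+ against GFP- cells at day 12, where 9.93% of all genes were higher. At day 14, 7 were higher and 0 lower, where 14.4% of all genes were higher. Zfp42 was higher by 1.85 ± 0.13 (log2, adjusted p = 5.84e-09) at day 12 and by 1.40 ± 0.13 (6.05e-08) at day 14, and Dppa4 by 1.08 ± 0.08 (5.73e-08) and by 0.74 ± 0.08 (1.48e-06). In tx2 cells 8 of the 9 were higher and 0 lower in GFP+ cells at each day, where 13% of all genes were higher at day 10 and 31.2% at day 12.

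The genes whose log2 CPM was most like that of a member over the 21 nx2 libraries were drawn from 10391 genes that averaged 5 CPM or more. For Tfap2a these were Pou6f1, a POU factor (Pearson r = 0.936), Syne2, a nuclear envelope nesprin (0.929), and Kif13a, a kinesin (0.923), with r of 0.963, 0.871 and 0.937 over the 21 libraries of the second batch. For Tfap2c they were Abcc4 (0.994), Snx10 (0.992) and Sema4b (0.989), with 0.748, 0.780 and 0.819 in the second batch. For Tfap2c the 3 MEF libraries lie far below the other nx2 libraries. For Elf5 they were Gstk1 (0.887), Nmt2 (0.880) and Fam83g (0.878), with 0.863, -0.454 and 0.735. In the second batch r was lower for the leading gene of Eomes (Gtf3c5, 0.940 and 0.072), Gata2 (Plekhg3, 0.921 and 0.460), Gata3 (Frmd6, 0.969 and 0.232), Hand1 (Pcgf5, 0.886 and 0.387) or Tead4 (Pllp, 0.970 and -0.455). Libraries of a batch fall into 7 groups and share lines, so these are descriptions with no test. Among the members themselves, Tfap2c and Tead4 had r = 0.752 in nx2 and 0.896 in the second batch, and Tfap2a and Tfap2c -0.754 in the second batch.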

How the data were processed

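RNA-seq of 42 libraries was deposited as 2 tables of raw counts, 1 per sequencing batch (21 libraries each). Per the file headers, the authors counted reads per gene name with featureCounts 1.5.3 on the reverse strand (setting 2), and reads in more than 1 gene of a strand were not counted. Per the submitters' processing notes, HISAT2 2.1.0, mm10 and DESeq2 1.18.1 were used. Library totals were 6540256 to 20783265 counts, which limits the precision of genes near 3 counts. Here counts were scaled by TMM, filtered with filterByExpr and tested by edgeR 4.0.16 (quasi-likelihood, R 4.3.3), all 21 libraries of a batch in 1 fit, with Benjamini-Hochberg adjustment over 16132 or 15197 genes and a threshold of 0.05. The fits were tested on simulated data. Replicate numbers of nx2 and tx2 groups name mouse lines, which pairs them; same-numbered libraries' deviations correlated at -0.121 to 0.359 over 63 nx2 pairs and 0.126 to 0.593 over 30 tx2 pairs. P-values for iPSC come from the fit of all 21 libraries of a batch. Their dispersion is shared with the other groups of the batch, so they do not measure the spread between clones alone. Alternatives were RLE, library totals, other filters, DESeq2 1.42.0, the groups of a comparison alone, a replicate block and leaving out each library. The members and the lists were chosen with earlier results of these data known. From each other list, up to 4 called genes per comparison with the smallest adjusted p, and 1 called against the majority, could be named. No sample was left out.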

Additional observations from a re-analysis of the deposited data

Results flagged for a closer look

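For 3 members the difference between the GFP gates changed between days by a test of the change itself (edgeR interaction term, Benjamini-Hochberg adjustment). In nx2 lines the Gata2 effect of GFP+ over GFP- at day 14 minus that at day 12 was -2.27 on the log2 scale (adjusted p = 0.000705), and the Tead4 effect changed by 0.70 (adjusted p = 0.000644). In the nx2 test 1.54% of all genes were called. In tx2 lines the Elf5 effect at day 12 minus that at day 10 was -2.83 (adjusted p = 0.00325). In the tx2 test 27.3% of all genes were called, so 1 of 8 members is not above the background.

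For Tfap2c, Tead4 and Eomes every nx2 line moved one way and every tx2 line the other way between GFP+ and GFP- cells at day 12. How many of all genes do so was not counted. The within-line mean of log2 CPM in GFP+ minus GFP- cells was -1.01 in nx2 and 1.52 in tx2 for Tfap2c, and -0.45 in nx2 and 1.44 in tx2 for Tead4. For Eomes it was 0.23 in nx2, with 1 line at 0.0073, and -0.64 in tx2. The nx2 difference of Eomes was not called (edgeR, adjusted p = 0.621). The difference between the sets was not tested, because they were sequenced in separate batches, and mouse line, labelled stage and batch cannot be told apart.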

How the results depend on the processing

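Of 118 results for single members, 73 were called. Over 983 alternative values of these, 929 kept the call and the sign, 54 lost the call and 0 changed sign. Among the uncalled results, 31 alternative values were called and 16 changed sign. The cause of the changes below was not tested. Elf5 in nx2 GFP+ cells at day 14 against day 12 (-0.02) was 0.0037 with RLE factors, 0.00087 with library totals, 0.022 with the replicate block and 0.11 with DESeq2. Hand1 in nx2 iPSC against MEF (-0.24) was 0.043 with library totals.

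With no low-count filter, 0 members were called higher in nx2 day 14 GFP+ against GFP- cells (1 otherwise), and 2 in WT iPSC against tx2 day 12 GFP+ cells (1 otherwise). For nx2 day 12 GFP+ against GFP- cells 1 member was called higher (0 otherwise) with the groups alone, with the replicate block and with DESeq2. The nx2 change of the GFP effect gave 249 genes of all, 917 with the groups alone and 415 with DESeq2, with 2 members lower with the groups alone (1 otherwise). The tx2 change of the GFP effect had 1 member higher with RLE factors, with library totals and with the groups alone, and 2 with the block (0 otherwise). For Tet1 KO against WT iPSC, 1619 genes of all were called, 445 with the groups alone and 242 with the replicate block, with 0 members lower under both (2 otherwise) and 1 without the library over 8% mitochondrial counts.

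The replicate block moved the count of all genes to 5170 for tx2 day 10 GFP+ against GFP- cells (3398 without it; 2370 higher and 2800 lower, against 1975 and 1423) and to 6449 for the tx2 change of the GFP effect (4143 without it). With the groups alone that change gave 2612 higher and 2740 lower (1603 and 2540 otherwise), and Tet1 KO against WT 247 and 198 (727 and 892 otherwise). The KO and WT clones share only a number, their same-numbered deviations correlated at -0.091 to 0.016, and with the block Gata3 had an adjusted p of 0.105 and Tfap2a of 0.216. The block changed the calls given here and beside the results, and no other call of a member. No paired analysis was possible because the numbers belong to different lines for WT iPSC against tx2 day 12 GFP+ cells.

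Leaving out 1 library at a time gave 117 to 177 genes for the nx2 change of the GFP effect, where Elf5 ranged from -2.88 to 0.13. It gave 840 to 2615 genes and 1 to 2 members lower for Tet1 KO against WT, and 2111 to 3947 genes and 1 to 3 members higher for tx2 GFP+ day 12 against day 10. Members called higher numbered 3 to 4 for nx2 GFP- day 14 against day 10, 0 to 1 for nx2 GFP+ against GFP- cells at both days, 0 to 2 for the tx2 change of the GFP effect and 1 to 2 for WT iPSC against tx2 cells. For nx2 GFP+ day 14 against day 12, 1 to 2 members were lower, Tfap2c ranged from -0.16 to 0.0091 and Elf5 from -0.93 to 2.07. Eomes ranged from -0.30 to 0.18 in nx2 iPSC against day 14 GFP+ cells, and Gata2 from -0.046 to 1.11 in tx2 day 10 GFP+ against GFP- cells. In the tx2 change of the GFP effect Hand1 ranged from -0.54 to 0.22, Tead4 from -0.067 to 0.22 and Gata2 from -0.15 to 1.00. Cdx2 and Elf5 in iPSC lie near the limit of depth, at 0 to 8 counts per library.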
